A study of Mus musculus with 9 samples.

Results

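The 7 genes Icam1, Icam2, Vcam1, Sele, Selp, Selplg and Madcam1, which serve the adhesion of leukocytes to endothelium, were taken by their symbols from a count table of 48587 genes. The samples were 9 pools of retinas from C57BL/6J mice 12 weeks old, with 6 retinas per pool and 3 pools per group. RVO eyes had all large veins occluded by a laser after injection of the photosensitizer eosin Y (200 mg/kg). Control laser-treated eyes, the other eyes of these mice, were treated in the same scheme between the large vessels, and untreated eyes received no laser. Laser settings in both laser groups were 50 mW, a spot of 50 µm and 2.5 s, and retinas were taken at d2. RNA of whole retinas was sequenced, so a lower value in a group can come from fewer cells of a type or from less RNA per cell, and these cannot be told apart.

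Leukocytes leave the blood in steps. Selectins on endothelium bind glycans on the leukocyte and let it roll, and integrins on the leukocyte then bind members of the immunoglobulin superfamily on endothelium and hold the cell firmly. ICAM-1 and ICAM-2 are ligands of the beta2 integrins, VCAM-1 is a ligand of the integrin alpha4 beta1, and MAdCAM-1 is the ligand of alpha4 beta7 and is best known from venules of the gut. E-selectin (Sele) is made by endothelium after inflammatory stimuli, and P-selectin (Selp) is stored in granules of endothelium and platelets. ICAM-1, VCAM-1, E-selectin and P-selectin of the mouse are classical targets of cytokines that act through NF-kB. ICAM-2 is made by resting endothelium. Selplg is the exception among the 7 genes, as its product PSGL-1 is the selectin ligand on leukocytes, and its mRNA is also known from resting microglia.

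Coordinates are given on mouse build GRCm38 and cover the whole gene. Icam1 lies at chr9:21015985-21028817 on the plus strand, 556 bases from Icam4 and 3256 bases from Icam5. Sele (chr1:164048234-164057677) and Selp (chr1:164115264-164150026) lie on the plus strand, 57587 bases apart. Madcam1 lies at chr10:79664559-79668537 on the plus strand. On the minus strand lie Icam2 (chr11:106377656-106388075), Vcam1 (chr3:116109949-116129688) and Selplg (chr5:113818536-113832644). Exons of Icam1, Vcam1 and Selp overlap exons of other annotated genes on the opposite strand, and reads of these cannot be told apart from their own if strand was not used in counting.

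The promoters of 4 of the 7 genes (300 bases that reach from upstream to just past the start, RefSeq, GRCm38.p6, plus strand) are shown because sequences like those bound by NF-kB and AP-1 are known from genes of this group. Capitals mark matches to the NF-kB consensus or to the 9 letters GGAAANTCC, a string chosen after these promoters had been read.
Icam1, chr9:21015690-21015989: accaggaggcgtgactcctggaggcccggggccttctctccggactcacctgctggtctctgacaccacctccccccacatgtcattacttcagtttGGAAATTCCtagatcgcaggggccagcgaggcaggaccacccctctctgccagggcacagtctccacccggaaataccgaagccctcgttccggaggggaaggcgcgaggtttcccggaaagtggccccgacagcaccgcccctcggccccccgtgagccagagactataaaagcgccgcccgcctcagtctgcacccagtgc
Madcam1, chr10:79664309-79664608: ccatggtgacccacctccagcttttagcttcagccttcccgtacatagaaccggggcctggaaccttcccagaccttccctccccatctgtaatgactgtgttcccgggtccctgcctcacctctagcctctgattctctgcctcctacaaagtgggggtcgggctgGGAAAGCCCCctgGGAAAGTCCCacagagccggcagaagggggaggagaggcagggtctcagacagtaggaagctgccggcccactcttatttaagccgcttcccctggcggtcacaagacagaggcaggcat
Sele, chr1:164047984-164048283: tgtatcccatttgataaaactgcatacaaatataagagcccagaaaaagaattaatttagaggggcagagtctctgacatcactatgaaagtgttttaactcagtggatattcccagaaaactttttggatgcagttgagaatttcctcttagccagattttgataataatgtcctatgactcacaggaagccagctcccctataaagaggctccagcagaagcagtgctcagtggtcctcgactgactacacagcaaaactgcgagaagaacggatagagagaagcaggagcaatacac
Selp, chr1:164115014-164115313: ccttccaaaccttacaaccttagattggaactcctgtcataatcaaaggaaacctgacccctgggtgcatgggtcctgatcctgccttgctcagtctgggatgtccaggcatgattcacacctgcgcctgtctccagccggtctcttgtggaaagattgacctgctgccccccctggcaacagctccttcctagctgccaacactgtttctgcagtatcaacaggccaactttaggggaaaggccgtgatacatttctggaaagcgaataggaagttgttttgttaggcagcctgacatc

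Both strands were searched, and positions are counted from the RefSeq start of the transcript. For Icam1 this start is base 21015940 of chromosome 9, 45 bases upstream of the gene start given above, and for the other 3 genes both starts are the same base. Icam1 held GGAAATTCC at -153 to -145. Madcam1 held matches to the NF-kB consensus at -83 to -74 and at -70 to -61, and the latter also contained GGAAAGTCC. Neither string was found in the promoters of Sele and Selp. Other forms of NF-kB sites were not searched, so their absence from these promoters is not shown. The letters TGANTCA of AP-1 were found in Sele at -73 to -67 and in Selp at -139 to -133. Of 32851 promoters of the same length, 8.46% held the NF-kB consensus, 1.25% GGAAANTCC and 7.81% TGANTCA. These matches describe the letters in the window and not the binding of a factor.

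Per sample, 21022997 to 28993921 counts were obtained for RVO eyes, 18897218 to 23419497 for control eyes and 12377572 to 15245869 for untreated eyes. Levels are given as CPM, the count per 1e6 counts of the sample after scaling by TMM factors, and 3 counts corresponded to 0.0956 to 0.272 CPM. Genes were tested with edgeR's quasi-likelihood test between each pair of groups, and a Benjamini-Hochberg adjusted p under 0.01 over all tested genes was counted as a difference. The comparisons with untreated eyes share the same 3 untreated samples. RVO replicate 2 stood apart from the other RVO samples, with chi-square values of 54.1 and 29.3 per degree of freedom against them, where the other RVO pair had 9.01. Markers of 12 cell types were summed in the same samples. Markers of rods were present in all samples at 46442 or more summed CPM, whereas the lens markers ranged from 3.43 to 28.2 summed CPM in untreated eyes and from 186 to 5944 in laser-treated eyes. In replicates 1, 2 and 3 the lens sums were 186, 5944 and 496 CPM for RVO eyes. For control eyes they were 3129, 371 and 220 CPM. RVO replicate 2 thus had the highest lens sum, and the part of lens tissue in the differences between pools was not tested.

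Icam1 and Vcam1 were higher in both groups of laser-treated eyes than in untreated eyes, and their highest levels were seen in RVO eyes. Icam2 and Selp had their highest mean levels in control laser-treated eyes. Selplg was lower in both laser groups. Sele and Selp had no counts in untreated eyes, and Madcam1 had its highest counts in RVO eyes.

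**Figure D1:**
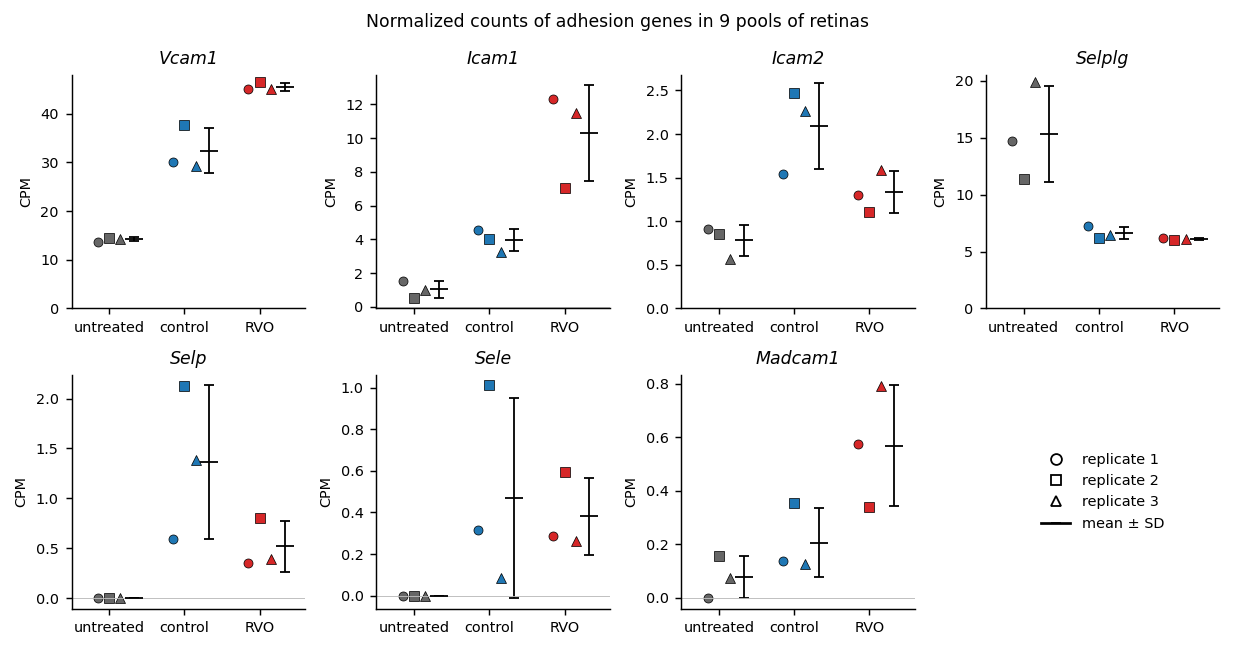
Each panel shows 1 gene, with its level in CPM on the y axis and the untreated, control laser-treated and RVO groups on the x axis. Points are pools (circle, square and triangle for replicates 1, 2 and 3), and bars are the mean ± SD of 3 pools. Vcam1 and Icam1 rise in steps from untreated to control to RVO eyes without overlap, Selplg is lower in all laser-treated pools, and Sele and Selp lie at 0 in untreated eyes.

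Icam1 had 1.54, 0.547 and 1.00 CPM in the untreated pools, 4.57, 4.04 and 3.26 CPM in the control pools and 12.3, 7.05 and 11.5 CPM in the RVO pools. The groups did not overlap, and RVO replicate 2 was the lowest of the RVO pools. Means were 1.03 ± 0.499, 3.96 ± 0.656 and 10.3 ± 2.84 CPM (SD, n = 3). Compared with untreated eyes, Icam1 was 10.4-fold higher after RVO (log2 fold change 3.37, standard error 0.36, edgeR adjusted p = 0.000114) and 3.94-fold higher in control eyes (1.98, standard error 0.29, adjusted p = 5.96e-05). These were the largest fold changes of the 7 genes among those with more than 3 counts in every untreated pool.

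Vcam1 was the most abundant of the 7 genes per kb of exons in laser-treated eyes. It had 13.7, 14.5 and 14.3 CPM in untreated pools, 30.1, 37.7 and 29.3 CPM in control pools and 45.0, 46.4 and 45.1 CPM in RVO pools. The groups did not overlap, and the RVO pools were nearly alike, with a coefficient of variation of 1.69%. Means were 14.2 ± 0.422, 32.4 ± 4.64 and 45.5 ± 0.767 CPM (SD, n = 3). Against untreated eyes, Vcam1 was 3.28-fold higher after RVO (log2 fold change of 1.71 with a standard error of 0.08, edgeR adjusted p = 3.37e-06). In control eyes it was 2.31-fold higher (1.21, standard error 0.11, adjusted p = 1.44e-06).

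Icam2, the ligand made by resting endothelium, showed another order of the groups. Its levels were 0.908, 0.859 and 0.571 CPM in untreated pools, 1.54, 2.48 and 2.26 CPM in control pools and 1.31, 1.10 and 1.58 CPM in RVO pools. All laser-treated pools lay above the untreated pools, while control replicate 1 lay within the range of the RVO pools. Icam2 was 2.73-fold higher after control treatment (log2 fold change 1.45, standard error 0.30, edgeR adjusted p = 0.00104). Between RVO and untreated eyes the log2 fold change was 0.81 (standard error 0.29), which did not pass the threshold (edgeR adjusted p = 0.0374).

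Madcam1 was near the limit of detection. It had 0, 2 and 1 counts in untreated pools, 3, 7 and 3 counts in control pools and 18, 8 and 18 counts in RVO pools. The RVO pools lay above the untreated pools, but RVO replicate 2, at 0.340 CPM, lay below control replicate 2, at 0.354 CPM. Madcam1 did not pass the filter for low counts in any comparison. Set against 3 counts in an untreated pool, its mean in RVO eyes was at least 2.09-fold higher. No fold change is given for control eyes, where the mean was below that floor.

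Selp had 0 counts in each untreated pool, 13, 42 and 33 counts in control pools and 11, 19 and 9 counts in RVO pools. All laser-treated pools thus lay above the untreated pools. The mean was 1.36 ± 0.767 CPM after control treatment and 0.518 ± 0.251 CPM after RVO (SD, n = 3). Control eyes were at least 5.01-fold higher than a floor of 3 counts in an untreated pool (edgeR adjusted p = 0.00034), and RVO eyes at least 1.90-fold. The gene did not pass the filter for low counts between RVO and untreated eyes.

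Sele also had 0 counts in each untreated pool. It had 7, 20 and 2 counts in control pools and 9, 14 and 6 counts in RVO pools, and replicate 2 was the highest in both laser groups. Control replicate 3 was thus below the floor of 3 counts. The mean was 0.470 ± 0.482 CPM after control treatment and 0.382 ± 0.185 CPM after RVO (SD, n = 3), at least 1.73-fold and 1.40-fold above the floor. Sele did not pass the filter for low counts in any comparison, so fold changes of the selectins carry large counting errors.

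Selplg, the selectin ligand on leukocytes, went the other way. It had 14.7, 11.4 and 19.9 CPM in untreated pools, 7.24, 6.21 and 6.49 CPM in control pools and 6.18, 5.99 and 6.11 CPM in RVO pools. The laser-treated pools lay below all untreated pools. Against untreated eyes, Selplg was 2.46-fold lower after RVO (log2 fold change of -1.30 with a standard error of 0.20, edgeR adjusted p = 0.000677). In control eyes it was 2.28-fold lower (-1.19, standard error 0.17, adjusted p = 5.62e-05).

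In total, 4 of the 7 genes passed the filter between RVO and untreated eyes. Of these, 2 were higher (Icam1 and Vcam1) and 1 was lower (Selplg), where 27.4% and 24.6% of all 16380 tested genes were higher and lower. Between control and untreated eyes, 5 genes passed the filter, 4 were higher (Icam1, Icam2, Vcam1 and Selp) and 1 was lower (Selplg), beside 27.2% and 25.2% of 16066 tested genes. Selp, with 0 counts in each untreated pool, passed the filter through the control pools alone. It could therefore hardly be called other than higher, and it adds no support to this count. The median log2 fold change of the tested members was 1.26 and 1.45, and that of all tested genes was 0.01 in both comparisons. Levels of the groups did not overlap for 6 members higher and 1 lower in RVO eyes. The tested ones were Icam1, Icam2 and Vcam1 (higher) and Selplg (lower), where 35.9% and 37.5% of tested genes did so. Sele, Selp and Madcam1 did not pass the filter and are outside these shares. For control eyes the numbers were 5 and 1, with Icam1, Icam2, Vcam1, Selp and Selplg tested, beside 34.6% and 35.4% of tested genes. With 0 counts in each untreated pool, Sele and Selp could only lie higher, and they add no support. With libraries scaled by their size alone, the median of all genes became 0.22 and 0.19, and no member crossed the threshold.

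The comparison of RVO with control laser-treated eyes asks what the occlusion of veins adds to the laser treatment. None of the 5 members that passed the filter was called at an adjusted p under 0.01, where 2.7% of 16874 genes were higher and 0.634% were lower in RVO eyes. At an unadjusted p under 0.05 there were 2 members higher (Icam1 and Vcam1) and 2 lower (Icam2 and Selp) in RVO eyes, where 24.1% and 22.9% of all genes were higher and lower. At an adjusted p under 0.05 there were 2, Icam1 and Vcam1, where 17.5% of all genes were higher. The same 2 members were called by DESeq2 at 0.01, a test that called 11% of all genes higher. Of the 5 tested members, 2 were without overlap higher in RVO eyes (Icam1 and Vcam1) and 1 lower (Selplg), beside 26.7% and 25.8% of tested genes.

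RVO eyes exceeded control eyes 2.61-fold in Icam1 (log2 fold change 1.39, standard error 0.25, edgeR adjusted p = 0.0116). For Vcam1 they did so 1.41-fold (0.50, standard error 0.11, adjusted p = 0.0150). Selp had a log2 fold change of -1.40 (standard error 0.52, edgeR adjusted p = 0.0708) and Icam2 of -0.65 (standard error 0.25, adjusted p = 0.0811). The mean levels of both were thus lower in RVO eyes, and their ranges overlapped with those of control eyes. For Selplg the log2 fold change was -0.12 (standard error 0.13, edgeR adjusted p = 0.488). The pools of RVO and control eyes did not overlap for this gene, but their nearest values were 6.21 and 6.18 CPM.

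Without RVO replicate 2, both Icam1 (log2 fold change 1.58, edgeR adjusted p = 4.04e-05) and Vcam1 (0.46, adjusted p = 0.00601) passed the threshold, as did 17.1% of all genes in the same direction. With this sample and without any other single sample, neither gene passed, and in those fits 0 to 0.169% of all tested genes were called higher. In that comparison without RVO replicate 2, Selp had a log2 fold change of -1.86 (edgeR adjusted p = 0.0169). Against untreated eyes, leaving out this sample changed no call, and the log2 fold change was 3.61 for Icam1, 1.72 for Vcam1, 0.94 for Icam2 and -1.27 for Selplg.

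**Figure D2:**
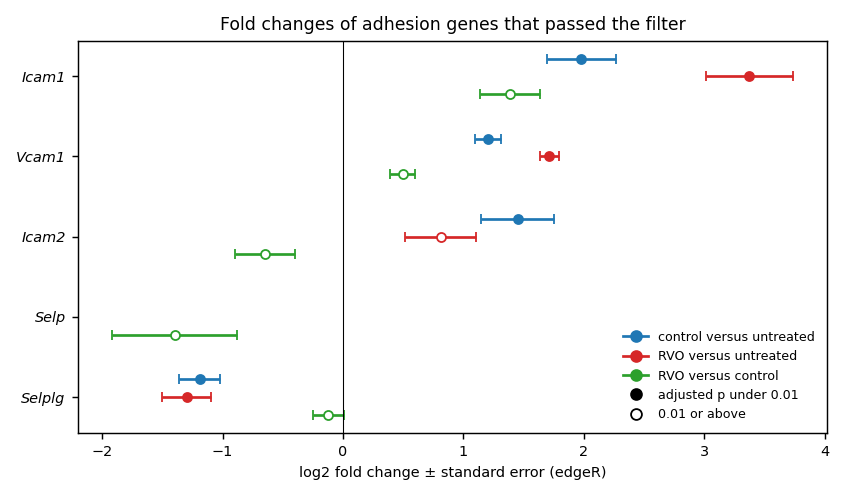
The x axis is the log2 fold change with its standard error from edgeR's quasi-likelihood test for the genes that passed the filter, and colours mark the 3 comparisons. Filled points have an adjusted p under 0.01. All 4 filled red or blue points of Icam1 and Vcam1 lie right of 0 and those of Selplg left of 0, and no point of RVO versus control eyes is filled. The fitted value of Selp against untreated eyes, where it had 0 counts, is left out.

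Levels were compared among the genes per kb of merged exons. In untreated eyes Selplg was the highest, with 3.59 ± 0.997 CPM per kb (SD, n = 3), above Vcam1 with 1.60 ± 0.0475. Icam2 (0.409 CPM per kb) and Icam1 (0.236 CPM per kb) overlapped in their ranges and lay above Madcam1 (0.0529 CPM per kb). In control eyes Vcam1 came before Selplg, with 3.65 ± 0.523 and 1.56 ± 0.124 CPM per kb. Icam2 (1.10 CPM per kb) and Icam1 (0.908 CPM per kb) again overlapped, as did Selp (0.309 CPM per kb), Sele (0.161) and Madcam1 (0.143) with the next in order.

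In RVO eyes the order changed at Icam1. Vcam1 had 5.13 ± 0.0865 CPM per kb, and Icam1 followed with 2.36 ± 0.652, above Selplg with 1.43 ± 0.0229 and Icam2 with 0.699 ± 0.126. The ranges of these neighbours did not overlap. Madcam1 (0.396 CPM per kb) lay above Sele (0.131) and Selp (0.117), which overlapped. Icam1 thus followed Selplg in untreated and control eyes and came before it in RVO eyes. It also came before Icam2 in RVO eyes, whereas the order of Icam1 and Icam2 was not resolved in the other groups, where their ranges overlapped.

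The summed level of the 15 endothelial markers was 291 to 305 CPM in untreated pools, 472 to 537 CPM in control pools and 263 to 422 CPM in RVO pools. Of these 15 genes, 11 were higher than in untreated eyes after control treatment and 4 after RVO, beside 27.2% and 27.4% of all tested genes, and none was lower. The 4 of 15 after RVO are near the share of all genes. RVO eyes had a median log2 fold change of the 15 markers of -0.77 against control eyes, with 1 gene lower, the transcription factor Sox17 (log2 fold change -1.61, standard error 0.26, edgeR adjusted p = 0.00996). Of all tested genes, 0.634% were lower in this comparison. Kdr and Flt1, receptors of VEGF, made up most of the sum, with 254 and 111 of 499.6 CPM in control eyes. RVO replicate 2 was the lowest RVO pool in Icam1 and the highest RVO pool in this sum.

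**Figure D3:**
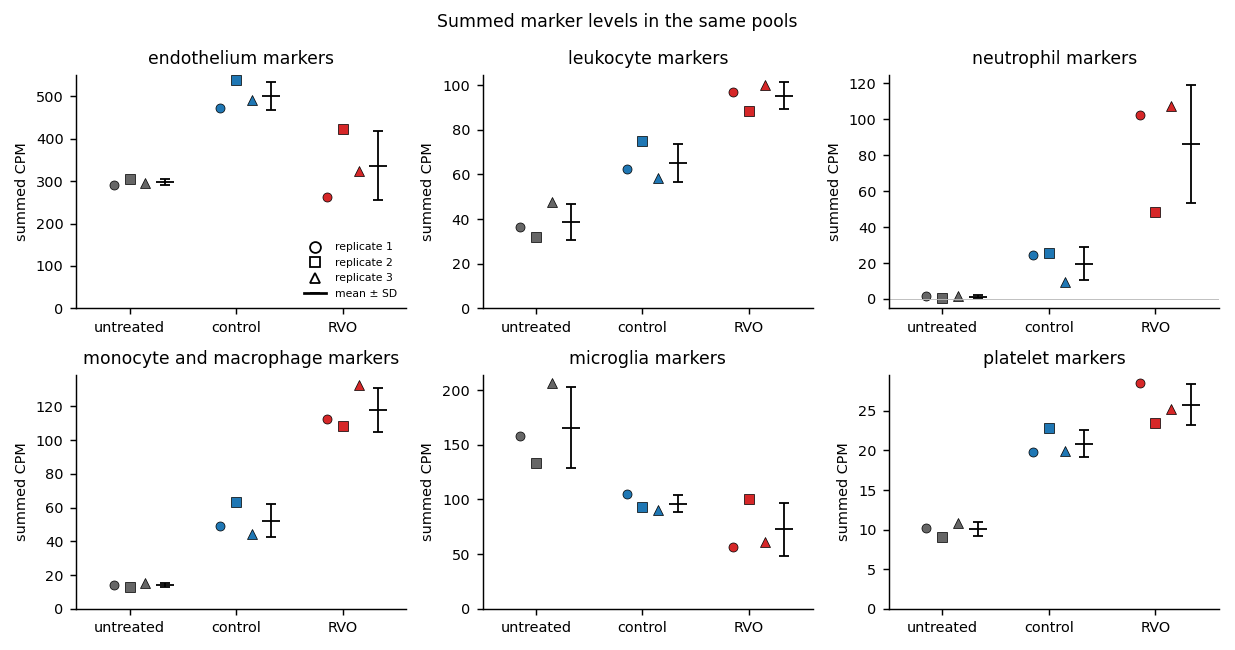
Each panel gives the summed CPM of a list of marker genes on the y axis for the 3 groups on the x axis, with pools as points and mean ± SD as bars. Endothelial markers are highest in control eyes, microglia markers are lower in laser-treated eyes, and markers of leukocytes, neutrophils, monocytes and platelets are highest in RVO eyes, with RVO replicate 2 the lowest RVO pool for neutrophils.

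Each member was therefore also expressed as a percentage of the summed endothelial marker CPM of the same pool. Icam1 amounted to 0.349 ± 0.176% in untreated, 0.795 ± 0.155% in control and 3.30 ± 1.52% in RVO eyes (SD, n = 3). Single pools had 0.530, 0.180 and 0.338% in untreated eyes, 0.967, 0.753 and 0.666% in control eyes and 4.68, 1.67 and 3.56% in RVO eyes, and the groups did not overlap. Against untreated eyes the log2 difference was 3.25 for RVO and 1.31 for control eyes, and RVO eyes exceeded control eyes by 1.95 (exact two-sided permutation test, p = 0.1 each). This p is the smallest that 3 against 3 samples allow.

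Vcam1 amounted to 4.77 ± 0.0572% of the endothelial marker sum in untreated, 6.46 ± 0.526% in control and 14.0 ± 3.05% in RVO eyes (SD, n = 3). Control eyes exceeded untreated eyes by a log2 difference of 0.43, and RVO eyes exceeded control eyes by 1.10 (exact permutation test, p = 0.1 each). Relative to these markers Vcam1 thus differed less between control and untreated eyes than in CPM, and more between RVO and control eyes. By the geometric mean of the markers, the latter difference was 1.20. All these percentages depend on the markers chosen. Between RVO and control eyes the log2 fold change was -0.77 for Kdr and as the median of the 15 markers. For Cdh5 it was 0.08, for Pecam1 0.07 and for Egfl7 0.50. Levels relative to single markers were not tested. Icam2 had 0.262 ± 0.0619%, 0.416 ± 0.0783% and 0.415 ± 0.133% in untreated, control and RVO eyes. Its log2 difference between RVO and control eyes was -0.04 (pooled SD 0.43, exact permutation test, p = 1.0), where it was -0.65 in CPM. Madcam1 had a log2 difference of 2.15 between RVO and control eyes (exact permutation test, p = 0.1), Sele of 0.84 (p = 0.6) and Selp of -0.72 (p = 0.3).

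Markers of other cells that could carry members were summed in the same way. Summed platelet markers, which matter for Selp, were 9.06 to 10.9 CPM in untreated, 19.8 to 22.9 CPM in control and 23.4 to 28.6 CPM in RVO pools, and Pf4, a chemokine of platelets, had 0 counts in untreated eyes, as Selp did. Between RVO and control eyes, 6 platelet markers were tested, with log2 fold changes from -1.08 (Gp1bb) to 2.05 (Pf4) and a median of 0.57. Of these 6, 1 was called, Pf4, which was higher in RVO eyes (5.82 and 1.41 CPM, log2 fold change 2.05, standard error 0.28, edgeR adjusted p = 0.00857), as were 2.7% of all tested genes. Summed Mueller cell and astrocyte markers were 4709 to 4999 CPM in untreated, 4316 to 4726 CPM in control and 3356 to 4149 CPM in RVO pools. Glul alone gave 2599 of the mean 4870 CPM without treatment, and the 10 markers were split. Between RVO and untreated eyes 3 were called up, Gfap (log2 fold change 3.38), Vim (2.89) and Cp (1.46). Another 3 were called down, Glul (-1.96), Aqp4 (-1.40) and Rlbp1 (-0.27). The shares of all tested genes were 27.4% and 24.6%. The part of platelets, Mueller cells and astrocytes in the levels of Icam1, Vcam1 and Selp was not tested.

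For Selplg the cells of interest are leukocytes and microglia. Summed leukocyte markers were 31.9 to 47.6 CPM in untreated, 58.2 to 74.8 CPM in control and 88.5 to 100.2 CPM in RVO pools, and none of the 9 markers was lower in either laser group. Selplg as a percentage of this sum was 39.2 ± 3.09% in untreated, 10.4 ± 1.79% in control and 6.42 ± 0.335% in RVO eyes (SD, n = 3). The groups did not overlap, and the log2 difference was -2.61 for RVO and -1.93 for control against untreated eyes and -0.68 for RVO against control eyes (exact permutation test, p = 0.1 each). Summed neutrophil markers were 0.625 to 1.71 CPM in untreated, 9.42 to 25.4 CPM in control and 48.3 to 107.6 CPM in RVO pools. Summed monocyte and macrophage markers were 12.9 to 15.1 CPM, 44.6 to 63.1 CPM and 108.6 to 132.7 CPM in the same order. T, B and NK lymphocyte markers stayed near the limit of detection, with at most 2.33 summed CPM. Summed microglia markers were 134 to 206 CPM in untreated, 90.6 to 104.9 CPM in control and 56.7 to 100.4 CPM in RVO pools. Of 10 microglia markers, 5 were lower in each laser group than in untreated eyes and none was higher. Of all tested genes, 24.6% were lower in RVO eyes and 25.2% in control eyes. Tmem119, a marker of resting microglia 18020 bases from Selplg, fell by 3.15 on the log2 scale in RVO and by 1.89 in control eyes (edgeR adjusted p = 5.78e-05 and 6.21e-07). The part of microglia in the level of Selplg was not tested.

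**Figure D4:**
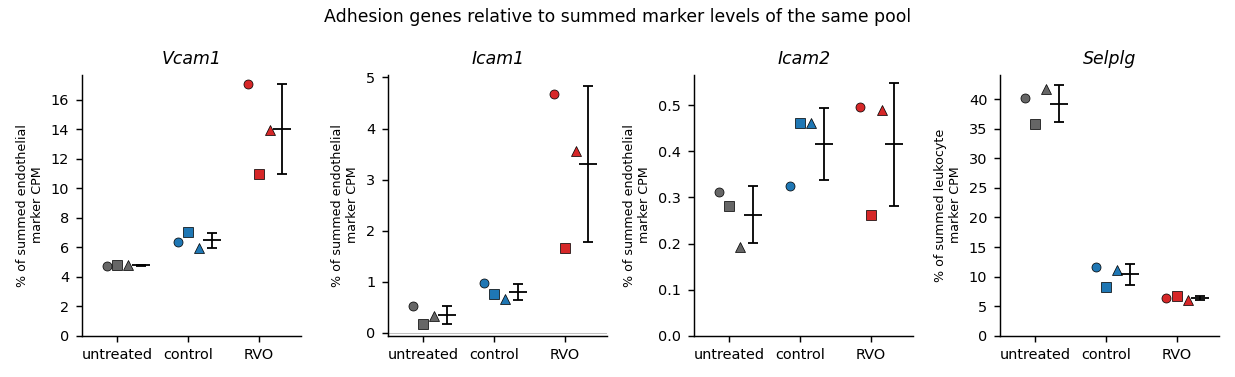
The y axes give the level of each gene as a percentage of the summed CPM of endothelial markers (Vcam1, Icam1 and Icam2) or leukocyte markers (Selplg) of the same pool, and the x axis gives the groups. Points are pools and bars are mean ± SD of 3 pools. Vcam1 and Icam1 are highest in RVO eyes, Icam2 is alike in control and RVO eyes, and Selplg falls from 39.2% in untreated to 6.42% in RVO eyes.

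The genes most like each member were sought among 14973 genes with a mean of at least 1 CPM, by the root mean square difference of centred log2(CPM + 0.25) over the 9 samples. Vcam1 was followed closely by Rnf144b (0.0626) and Ahnak (0.0631), in log2 units. Ahnak had mean levels of 13.6, 31.3 and 45.3 CPM in untreated, control and RVO eyes. Icam1 was nearest to Piezo1 (0.239), Spsb1 (0.268) and Lpin3 (0.268), and Icam2 to Cmklr1 (0.214), Lrrc75a (0.243) and Pkn3 (0.248). With a pseudocount of 1 CPM, none of these 6 neighbours of Icam1 and Icam2 remained among the nearest 3. Among the genes near Selplg were Irak1bp1 (0.192) and Zc3h11a (0.195).

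Leukocytes bind the members through integrins and other counter-receptors. Of 14 tested, 12 were higher after RVO than without treatment and none was lower (median log2 fold change 2.40), where 27.4% of all tested genes were higher. When 2 genes whose untreated pools held no more than 3 counts were set to their lower bounds, the median was 2.12. These 2 genes passed the filter through the RVO pools and could hardly be called other than higher. They add no support to the count of 12. In control eyes 9 of 13 were higher and none was lower (median 1.09, also with 1 gene at its bound), beside 27.2% of all tested genes. The gene at its bound adds no support to this count either. Itgax, which codes for CD11c, an alpha chain of a beta2 integrin, had 1 count in each untreated pool, and against a floor of 3 counts per library it was at least 8.44-fold higher in RVO (edgeR adjusted p = 4.01e-05) and at least 4.15-fold higher in control eyes (adjusted p = 0.000308).

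Chains that bind the members directly were looked up for their role after the values had been seen. Itgal and Itgb2, which form the ICAM-1 receptor LFA-1, had log2 fold changes of 2.63 and 2.67 in RVO against untreated eyes, and Itgam, the alpha chain of Mac-1, of 2.07, all called. Itga4, the alpha chain of the VCAM-1 receptor, had 56.3 CPM in untreated and 65.8 CPM in RVO eyes and was not called (log2 fold change 0.26, edgeR adjusted p = 0.0212). Itgb7, which pairs with it to bind MAdCAM-1, was called, with a log2 fold change of 2.17. Between RVO and control eyes 3 of 14 partners were higher, beside 2.7% of all tested genes. The 3 partners were Cd24a, a glycoprotein that binds P-selectin (1.81), Cd44, a ligand of E-selectin (1.21), and Itgb1, the beta chain of the VCAM-1 receptor (0.66). The edgeR adjusted p was 0.00817, 0.00893 and 0.00895. Cd44 had 215 CPM in RVO eyes and is also known from Mueller cells. In untreated eyes Itgb1 had 69.2 CPM and Itga4 56.3 CPM, where the leukocyte marker Ptprc had 1.00 CPM. The part of leukocytes in the levels of these partners was not tested.

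Enzymes that build the glycans bound by selectins form the next list. Of 11 tested, 7 were higher and 1 was lower after RVO than without treatment, beside 27.4% and 24.6% of all tested genes. After control treatment 5 were higher and 2 lower, beside 27.2% and 25.2%. Gcnt1, which makes the branched core of the selectin ligand on PSGL-1, was the gene called between RVO and control eyes (7.29 and 2.65 CPM, log2 fold change 1.47, standard error 0.24, edgeR adjusted p = 0.00999). It was 1 of 12 tested, beside 2.7% of all tested genes. Among proteases that release the members from the cell surface and their inhibitors, 5 of 8 were higher and 1 was lower after RVO, and 5 were higher and 2 lower after control treatment. In each comparison 1 of the 8 had at most 3 counts in every untreated pool and could hardly be called other than higher. The shares of all tested genes were those given above for the enzymes. Mmp14 rose by 1.83 on the log2 scale in RVO and by 1.21 in control eyes (edgeR adjusted p = 4.71e-06 and 2.44e-06).

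Interleukin 1 and TNF are known inducers of these molecules. Il1b had a mean of 0.0759 CPM in untreated, 2.46 CPM in control and 8.35 CPM in RVO eyes. Against the floor of 3 counts per library, Il1b was at least 30.7-fold higher in RVO (edgeR adjusted p = 7.61e-05) and at least 9.02-fold higher in control eyes (adjusted p = 0.00016) than in untreated eyes. Tnf had 0.0908, 0.303 and 0.861 CPM and was at least 3.16-fold higher after RVO than without treatment (edgeR adjusted p = 0.00612). Ifng and Il13 had no counts in any sample. Of 15 tested inducers and their receptors, 10 were higher and 1 was lower after RVO than without treatment. Among the 15, 4 genes, with Il1b and Tnf among them, had at most 3 counts in each untreated pool. They passed the filter through the RVO pools, could hardly be called other than higher and add no support to this count. In control eyes 7 of 12 were higher and 1 lower, and the same limit holds there for Il1b. Of all tested genes, 27.4% were higher and 24.6% lower after RVO, and 27.2% and 25.2% in control eyes. Over the 15 genes after RVO, the fitted median was 2.55 on the log2 scale, and it was 1.24 with 4 genes set to their lower bounds.

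Between RVO and control eyes 2.7% of all tested genes were higher, and 2 of 16 tested genes of this list were. These were Tnfrsf1b, a receptor of TNF (24.2 and 7.47 CPM, log2 fold change 1.70, standard error 0.25, edgeR adjusted p = 0.00928), and Vegfa (326 and 148 CPM, 1.14, standard error 0.18, adjusted p = 0.00989). Of 12 genes of NF-kB and its inhibitors, 10 were higher and 1 was lower after RVO than without treatment. In control eyes 8 were higher and 1 lower. The shares of all tested genes were 27.4% and 24.6% after RVO, and 27.2% and 25.2% in control eyes. Between RVO and control eyes 4 of the 12 were higher, Nfkb2 (1.61), Relb (1.45), Nfkbia (0.86) and Nfkbiz (0.57), with edgeR adjusted p between 0.0088 and 0.00996. Nfkb2 and Relb code for subunits of the alternative NF-kB pathway, and Nfkbia for the inhibitor that NF-kB itself induces. The median over the list was 0.61, where that of all tested genes was 0.02.

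The list of other adhesion molecules of endothelium had 18 tested genes. After RVO 5 were higher and 3 were lower than without treatment (median log2 fold change 0.20), and the 5 are near the share of all tested genes, as 27.4% were higher and 24.6% lower. In control eyes 9 were higher and 2 lower (median 0.36), beside 27.2% and 25.2%. Between RVO and control eyes none was called, 0 of 18, and the median was -0.24. Of all tested genes, 2.7% were higher and 0.634% lower in RVO eyes. Cdh5, the cadherin of endothelial junctions, was called higher in both laser groups, with means of 3.67, 9.70 and 10.2 CPM in untreated, control and RVO eyes. Alcam, a ligand of CD6 on T cells, was called lower in both, with log2 fold changes of -1.41 in RVO and -0.45 in control eyes. Icam4 and Icam5, the neighbours of Icam1, had at most 0.312 and 1.61 CPM as group means. Icam4 did not pass the filter, and Icam5 was not called in any comparison.

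**Figure D5:**
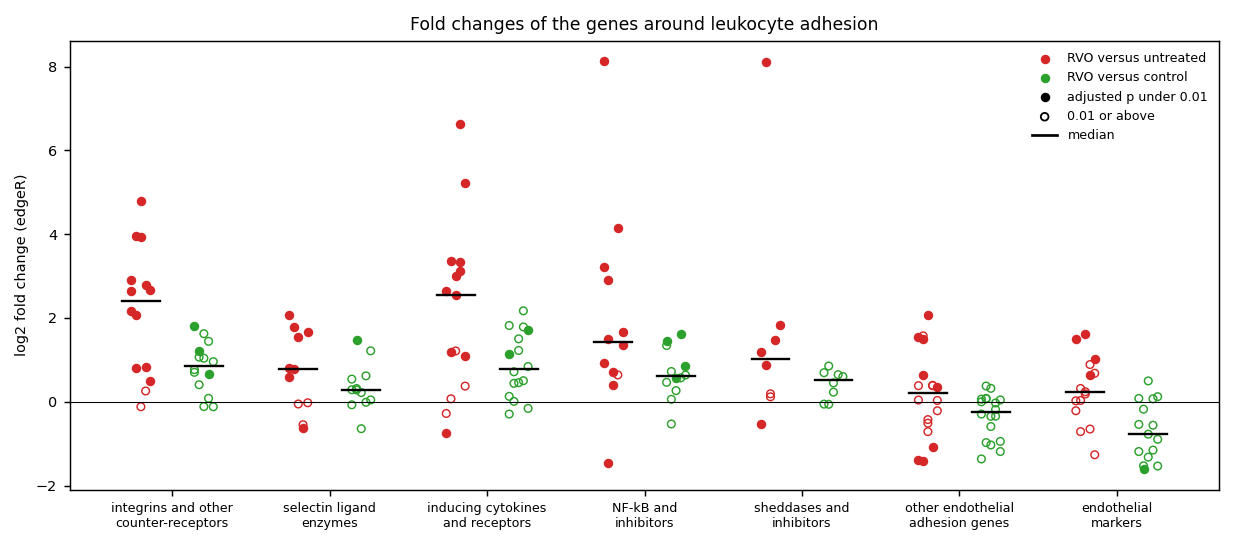
Each point is a gene of the list named on the x axis, with its log2 fold change from edgeR on the y axis, for RVO versus untreated (red) and RVO versus control (green) eyes. Filled points have an adjusted p under 0.01 and lines are medians. Integrins and other counter-receptors, inducers and NF-kB genes have medians of 2.40, 2.55 and 1.43 against untreated eyes (2.12, 1.24 and 1.43 with genes held at lower bounds where no untreated pool exceeded 3 counts, which the plot does not show), whereas endothelial markers have 0.24 and, against control eyes, -0.77.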

How the data were processed

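RNA from 9 pools of mouse retinas (3 RVO, 3 control laser-treated and 3 untreated) was sequenced from stranded libraries. The authors aligned the reads with STAR (version 2.5.2b in the submitters' processing notes) to GRCm38 with the Gencode vM11 annotation and counted them per gene with featureCounts (Subread 1.5.1). They deposited raw counts without normalization. How reads with several matches were handled and whether strand was used are not given in the sources used here. Of 48679 names, 92 were spike-in controls with 0 counts and were left out.

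For each pair of groups, counts were filtered with filterByExpr, scaled by TMM and tested by edgeR 4.0.16 (quasi-likelihood test, R 4.3.3), with Benjamini-Hochberg adjustment over all tested genes and a threshold of 0.01. CPM used TMM factors from all 9 samples. A pseudocount of 0.25 CPM was added for the geometric means of marker lists and for the search of similar genes. Percentages of summed marker CPM used no pseudocount. Folds against pools with at most 3 counts were computed against a floor of 3 counts in the shallowest untreated library and are lower bounds that cover counting error only. The procedure was tested on simulated counts. Groups came from the sample titles, and each replicate is a separate pool.

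Alternatives were DESeq2 1.42.0, RLE factors, library size only, no filter, a joint fit of all groups, a block for the replicate number, a threshold of 0.05, a pseudocount of 1 CPM, geometric means of marker lists and leaving out single samples. The 7 genes, the lists and the motifs were chosen with earlier results of these data known. All 7 genes were named, and of each list up to 4 called genes per comparison with the largest change and no overlap of the groups. Gene positions and exon lengths came from GENCODE vM21 and promoters from RefSeq, both on GRCm38. Results of some genes are not reported here.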

Additional observations from a re-analysis of the deposited data

How the results depend on the processing

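None of the alternatives reversed the sign of the log2 fold change of a tested member. Against untreated eyes, 51 of 52 values from RVO eyes and 63 of 63 from control eyes kept their side of the threshold, and the exception was Icam2 at an adjusted p under 0.05. Without the filter on low counts 5 members were higher in RVO than in untreated eyes by edgeR, as Sele, Selp and Madcam1 were then tested (adjusted p = 0.00134, 0.000336 and 0.00289). In this setting 18.1% of 29196 genes were higher. These 3 members had at most 2 counts in any untreated pool. When 1 sample at a time was left out, 2 members stayed higher and 1 lower in RVO eyes, and 3 to 4 were higher and 1 lower in control eyes, as Selp failed the filter without control replicate 2 or 3.

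Between RVO and control eyes, 0 members were higher by edgeR at 0.01, but the number was 2 at an adjusted p under 0.05, 2 with DESeq2, 1 with library size only (Icam1, adjusted p = 0.00995), 2 with no filter on low counts and 2 in 1 fit of all 9 samples. With each sample left out it ranged from 0 to 2, and it was 2 without RVO replicate 2. Over all alternatives the edgeR or DESeq2 adjusted p ranged from 7.33e-06 to 0.0584 for Icam1 (log2 fold change 1.22 to 1.58) and from 0.00156 to 0.0657 for Vcam1 (0.42 to 0.62). In these settings the share of all genes called higher moved as well, with 11% for DESeq2, 5.28% without the filter, 10.7% in the fit of all samples and 0% in 3 of the 6 fits that left out a sample. The cause was not tested.

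With the replicate number as a block, 2 members were higher and 1 was lower after RVO than without treatment, 4 were higher and 1 was lower after control treatment, and 0 differed between RVO and control eyes (Icam1 log2 fold change 1.36, edgeR adjusted p = 0.0314, Vcam1 0.50, adjusted p = 0.0314), where the blocked fit called 0% of all 16874 genes in either direction. Samples of the same number did not deviate together (r = -0.148, -0.157 and 0.0808 over 17112 genes between RVO and control eyes). These values cannot show that the pools held different mice, and the labels do not say which pools share mice. The replicate numbers were not taken to pair the samples. The main test thus treats RVO and control eyes as independent, although they came from the same mice. By geometric means of the marker lists, the log2 difference was 0.27 for Vcam1 between control and untreated eyes. For Selplg against untreated eyes it was -2.90 in RVO and -2.22 in control eyes. For Icam2 between RVO and control eyes the sign changed, from -0.04 by the sum to 0.06 by the geometric mean.

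The untreated samples had the fewest counts, which limits Sele, Selp and Madcam1 most. With 3 pools per group, exact permutation tests could not go below p = 0.1.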
